A study of Mus musculus with 12 samples.

Results

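The 47 genes described here encode the machinery that copies DNA and the enzymes that supply its nucleotides, from origin licensing through helicase, polymerases and clamp loader to thymidylate synthesis. They were chosen by name, with no measured value in the rule but with earlier results of these data known, and were sorted into 9 roles. All 47 were found among the 55487 gene rows of every library, and all 47 were among the 16798 genes that passed the filter on low counts. In 12 libraries, which form 4 groups of 3, RNA was sequenced from mouse dorsal cortex after laser microdissection of its ventricular zone. The E16.5 p18mKO2+ and E13.5 p18mKO2+ groups overexpressed p18mKO2 by their labels, and the groups set against them at the same embryonic days, E16.5 p18mKO2- and E13.5 p18mKO2-, were labelled normal in genotype. The knock-in allele lies at ROSA26 and holds a loxP-flanked stop before p18 joined through P2A to the fluorescent protein mKO2, so that Cre removes the stop. Tamoxifen was given by intraperitoneal injection in all 4 groups, the p18mKO2- groups included. None of the sources used here gives the Cre driver, the day of injection, the share of recombined cells or whether embryos were pooled. The labels number the 3 libraries of a group but do not say that they came from separate embryos.

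As background, a cell licenses its origins in G1, when the origin recognition complex, Cdc6 and Cdt1 load the MCM helicase onto DNA, and fires them in S phase, when the Cdc7-Dbf4 kinase, Cdc45 and GINS turn that helicase on. Most genes of this machinery are transcribed late in G1 by E2F factors, which retinoblastoma proteins hold back until cyclin D kinases phosphorylate them. p18, encoded by Cdkn2c, is an INK4 protein that inhibits Cdk4 and Cdk6. In the ventricular zone the radial glia divide, and their neuronal daughters leave the cycle and migrate out.

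The libraries held totals of 17101971 to 21837088 expected counts. The row of Cdkn2c did not separate the labelled p18 states: the E13.5 libraries differed by a log2 fold change, p18mKO2+ over p18mKO2-, of 0.14 ± 0.26, and the E16.5 libraries by 0.32 ± 0.26 (SE; edgeR adjusted p = 0.798 and 1.0), and no source used here says whether transgene reads reach that row. Replicate 3 of both p18mKO2+ groups held Xist together with Y-linked RNA at 50 CPM or more each, so that these 2 libraries contain RNA of both sexes. Of the other libraries, E13.5 p18mKO2+ had 1 with Xist and 1 with Y-linked RNA, and E13.5 p18mKO2- had 3 with Xist. At E16.5 the p18mKO2+ group had 2 more with Y-linked RNA, and the p18mKO2- group had 2 with Xist and 1 with Y-linked RNA. Libraries of a group thus differed in sex in all groups but E13.5 p18mKO2-, so those groups hold RNA of more than 1 embryo. Within E13.5 p18mKO2- the spread behind a p-value may be technical. The ribosomal RNA gene CT010467.1 varied between libraries, at 26190 to 65840 CPM in E13.5 p18mKO2+ and 52440 to 87990 CPM in E13.5 p18mKO2-. At E16.5 it had 16650 to 39640 CPM in p18mKO2+ and 70620 to 152000 CPM in p18mKO2-. RSEM's posterior SD was 0 in all libraries for 37 members and at most 1.43% of the count (Pole2), so few of their reads were shared with other genes.

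At E13.5 the replication genes were lower in p18mKO2+ tissue. Of the 47 members, 33 fell and 0 rose at a Benjamini-Hochberg adjusted p under 0.05 (edgeR quasi-likelihood test over all 16798 genes), against 3.49% of all genes called lower. The median log2 fold change of the members, p18mKO2+ over p18mKO2-, was -0.83, which is 56.4% of the p18mKO2- level, and the median over all genes tested was 0.01. All 47 fold changes were below 0, from -1.42 for Orc1 to -0.36 for Orc6. In 43 members every p18mKO2+ library lay below every p18mKO2- library, where 14.1% of all genes showed such a gap. Bulk RNA cannot tell fewer cycling cells in the cut tissue from less of these RNAs per cell.

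**Figure D1:**
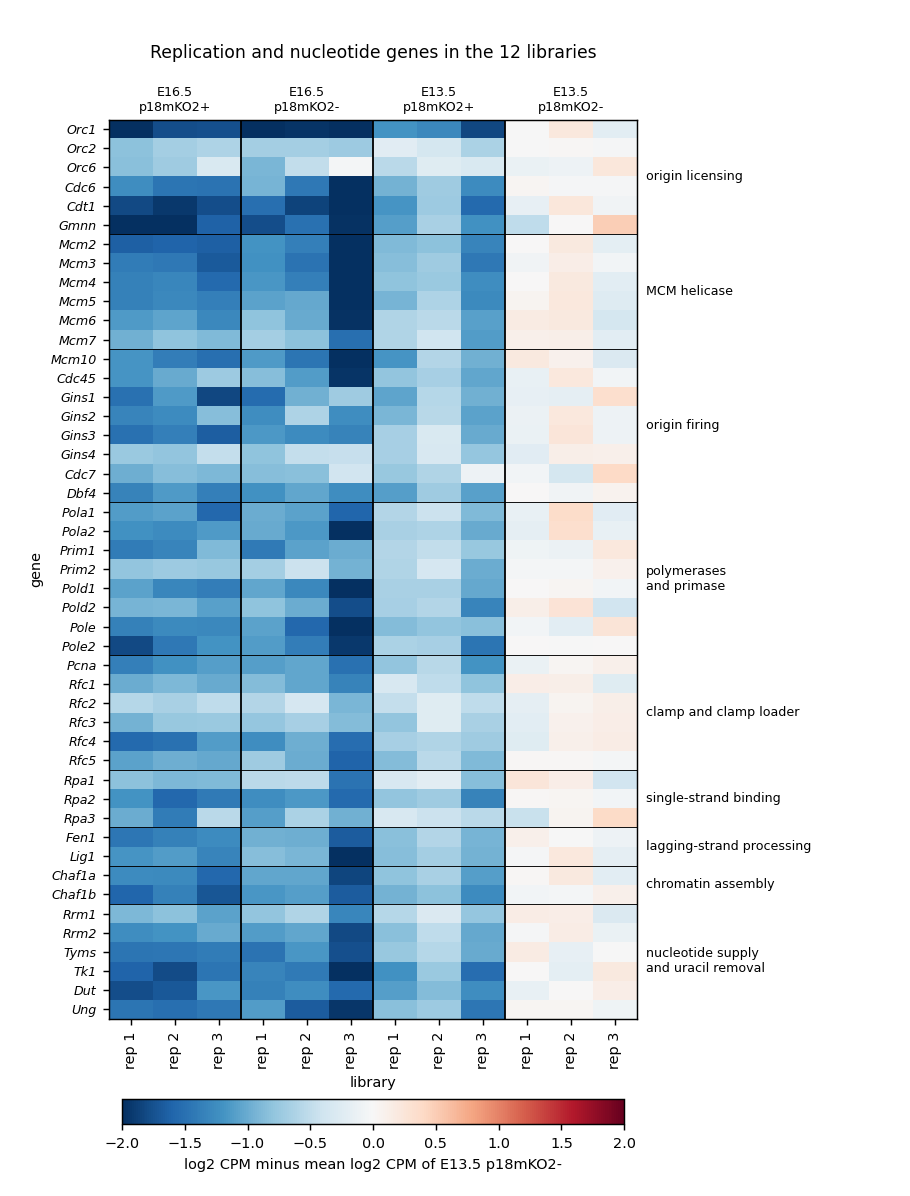
Level of each of the 47 members (rows, by role) in each of the 12 libraries (columns), as log2 CPM minus the mean log2 CPM of the 3 E13.5 p18mKO2- libraries; blue is lower. E13.5 p18mKO2+ is paler than both E16.5 groups, and replicate 3 is the lowest of its group for 40 of 47 members in E13.5 p18mKO2+ and in E16.5 p18mKO2-.

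The number of calls depended on single libraries. Within E13.5 p18mKO2+, replicate 3 was the lowest library for 40 of 47 members and replicate 2 the highest for 41. Without replicate 3, 5 members were called (Chaf1b, Dbf4, Dut, Pcna and Rpa2) and the median was -0.69, and without replicate 1 there were 8. Leaving out E13.5 p18mKO2- replicate 1, 2 or 3 left 20, 12 or 18 called. The same 5 genes were the ones called without both libraries of mixed sex (median -0.69) and with the ribosomal RNA gene as a covariate (median -0.64), and they alone of the 33 held their call in all 15 alternatives run. In each of those 15 fits every tested member stayed below 0.

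Among the 6 licensing genes 4 fell. Orc1, the ATP-binding subunit of the origin recognition complex whose level follows the cell cycle, had 4.07, 3.79 and 2.65 CPM in E13.5 p18mKO2+ and 9.24, 10.8 and 8.07 CPM in E13.5 p18mKO2-. It was the member with the largest fold change (log2 fold change -1.42 ± 0.37, adjusted p = 0.0257). Cdt1 had 24.5, 33.7 and 18.8 CPM in p18mKO2+ against 49.5, 65.2 and 53.1 CPM in p18mKO2- (log2 fold change -1.12 ± 0.28, adjusted p = 0.0192). Its inhibitor geminin, Gmnn, had 24.1, 32.9 and 22.2 CPM in p18mKO2+ against 36.4, 52.04 and 73.1 CPM in p18mKO2- (log2 fold change -1.03 ± 0.25, adjusted p = 0.0183). Both the loader and the protein that restrains it were lower in every p18mKO2+ library than in any p18mKO2- library. Cdc6, the other loading factor, fell too (log2 fold change -0.95 ± 0.26, adjusted p = 0.0299). The remaining subunits of the recognition complex did not pass the test, but whether their fold changes differ from that of Orc1 was not tested. Orc2, the one of the 6 licensing genes with the highest CPM, had 65.01, 59.4 and 48.6 CPM in p18mKO2+ against 75.4, 77.4 and 74.6 CPM in p18mKO2- (log2 fold change -0.39 ± 0.13, adjusted p = 0.0657). Orc6 had 41.4, 51.01 and 48.5 CPM in p18mKO2+ against 54.6, 56.3 and 70.5 CPM in p18mKO2- (log2 fold change -0.36 ± 0.21, adjusted p = 0.305). The groups of both genes lay apart, Orc6 by the narrow gap between 51.0 and 54.6 CPM. For Orc1 and Cdc6, 100 bases of promoter sequence from before the RefSeq start are shown. Both hold a form of the E2F site (TTTCCCGC, TTTGGCGC, TTTCGCGC or TTTGCCGC on either strand), printed in capitals. The stretches lie at chr4:108579354-108579453 and chr11:98907993-98908092 of GRCm38.p6, both on the plus strand. Their capitals begin at positions -27 and -138 from the RefSeq start, and the Cdc6 stretch ends at -59. GENCODE M21 starts these genes earlier, at bases 108579423 and 98907801, so by that annotation the capitals lie inside the genes.
Orc1: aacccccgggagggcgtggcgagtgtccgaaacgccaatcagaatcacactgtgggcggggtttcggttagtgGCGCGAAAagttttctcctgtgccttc
Cdc6: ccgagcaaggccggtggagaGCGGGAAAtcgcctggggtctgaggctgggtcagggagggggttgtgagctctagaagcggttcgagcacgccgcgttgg

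The 6 subunits of the MCM helicase, the ring that unwinds DNA, had fold changes of -0.68 to -1.0 on the log2 scale, and 4 of them fell. Mcm4 had 105, 109 and 77.6 CPM in E13.5 p18mKO2+ and 184, 210.3 and 158 CPM in E13.5 p18mKO2- (log2 fold change -0.92 ± 0.20, adjusted p = 0.0115). Mcm2, Mcm3 and Mcm5 fell, with log2 fold changes of -1.0, -0.97 and -0.93 (adjusted p = 0.0266, 0.018 and 0.0474). Mcm7 had the highest counts of the ring, 168, 193 and 117 CPM in p18mKO2+ against 272, 275 and 221 CPM in p18mKO2-. It missed the threshold (log2 fold change -0.68 ± 0.21, adjusted p = 0.0547), as did Mcm6 (log2 fold change -0.74 ± 0.25, adjusted p = 0.0769), although neither gene's groups overlapped. The 2 promoters below are shown for the same E2F forms, with 1 in capitals in Mcm5 and 2 in Mcm6. The stretches lie at chr8:75109336-75109435 on the plus strand and chr1:128359736-128359835 on the minus strand. Their capitals begin at position -153 in Mcm5 and at -110 and -47 in Mcm6. A further form on the other strand, not marked, overlaps the end of the capitals at -153 in Mcm5 and at -110 in Mcm6.
Mcm5: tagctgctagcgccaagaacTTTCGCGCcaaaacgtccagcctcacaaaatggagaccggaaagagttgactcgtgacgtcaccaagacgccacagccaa
Mcm6: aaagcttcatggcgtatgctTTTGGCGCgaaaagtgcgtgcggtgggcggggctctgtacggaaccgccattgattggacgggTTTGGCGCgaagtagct

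Of the 8 genes that fire origins, 5 fell. Dbf4, the regulatory subunit that activates the Cdc7 kinase, had the smallest p of all members, with 47.9, 62.9 and 48.9 CPM in E13.5 p18mKO2+ and 104, 98.4 and 108 CPM in E13.5 p18mKO2- (log2 fold change -0.96 ± 0.14, adjusted p = 0.000949). Its lowest p18mKO2- library exceeded its highest p18mKO2+ library by more than the range within either group. The kinase itself, Cdc7, had 40.6, 45.2 and 63.5 CPM in p18mKO2+ against 65.7, 53.8 and 90.5 CPM in p18mKO2-, and its groups overlapped (log2 fold change -0.49 ± 0.21, adjusted p = 0.16). Whether the fold changes of Dbf4 and Cdc7 differ was not tested. Cdc45 and the GINS genes Gins1, Gins2 and Gins4, whose products bind MCM to complete the working helicase, fell, with log2 fold changes of -0.83, -0.87, -0.84 and -0.58 (adjusted p = 0.0414, 0.0371, 0.0296 and 0.0498). Gins3 (log2 fold change -0.64 ± 0.21, adjusted p = 0.0674) and Mcm10, which assists helicase activation (log2 fold change -0.90 ± 0.30, adjusted p = 0.0688), were not called. The Dbf4 promoter holds none of the E2F forms in the window searched and is shown for contrast, with an Sp1 box (GGGCGG) in capitals from position -45, at chr5:8422717-8422816 on the minus strand.
Dbf4: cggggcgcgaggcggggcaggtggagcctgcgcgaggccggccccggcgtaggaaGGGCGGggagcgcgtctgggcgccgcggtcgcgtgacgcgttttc

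Among the polymerase and primase genes 5 of 8 fell. Prim1, the catalytic subunit of primase, had 66.2, 70.4 and 58.5 CPM in E13.5 p18mKO2+ and 93.1, 91.3 and 114 CPM in E13.5 p18mKO2- (log2 fold change -0.61 ± 0.17, adjusted p = 0.0307). Pole, the catalytic subunit of the leading-strand polymerase epsilon, had 53.5, 57.00 and 55.1 CPM in p18mKO2+ against 94.8, 85.1 and 117 CPM in p18mKO2- (log2 fold change -0.84 ± 0.20, adjusted p = 0.0172). Its p18mKO2+ libraries lay close together and far below the p18mKO2- range. Prim2, Pola2 and Pold2, subunits of primase and of polymerases alpha and delta, fell, with log2 fold changes of -0.62, -0.77 and -0.85 (adjusted p = 0.0364, 0.0494 and 0.0487). Pola1, Pold1 and Pole2 had log2 fold changes of -0.65 ± 0.21, -0.76 ± 0.25 and -0.87 ± 0.27 (SE) and missed the threshold (adjusted p = 0.0688, 0.068 and 0.0528).

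Pcna, the sliding clamp that tethers polymerases, had the highest TPM of all members in each of the 4 groups, and 5 of the 6 clamp and clamp loader genes fell. Its counts were 237, 279 and 179.8 CPM in E13.5 p18mKO2+ against 375, 421 and 438 CPM in E13.5 p18mKO2- (log2 fold change -0.83 ± 0.17, adjusted p = 0.0074). The loader subunits Rfc1, Rfc3, Rfc4 and Rfc5 fell, with log2 fold changes of -0.54, -0.55, -0.67 and -0.75 (adjusted p = 0.0474, 0.0436, 0.0265 and 0.0235). Rfc2 missed the threshold (log2 fold change -0.41 ± 0.15, adjusted p = 0.107). Of the 3 genes of replication protein A, which coats single-stranded DNA, 1 fell. Rpa2 had 40.7, 43.1 and 27.9 CPM in p18mKO2+ against 71.4, 72.2 and 67.97 CPM in p18mKO2- (log2 fold change -0.92 ± 0.18, adjusted p = 0.00544). Rpa1, the large DNA-binding subunit, had 96.3, 104 and 66.96 CPM in p18mKO2+ against 143, 132 and 92.3 CPM in p18mKO2- (log2 fold change -0.46 ± 0.24, adjusted p = 0.255). Rpa3 had 33.5, 31.1 and 28.98 CPM in p18mKO2+ against 30.9, 43.7 and 55.1 CPM in p18mKO2- (log2 fold change -0.47 ± 0.24, adjusted p = 0.234). The p18 groups of Rpa1 and Rpa3 overlapped, and whether their fold changes differ from that of Rpa2 was not tested.

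Both lagging-strand genes, both subunits of the histone chaperone CAF-1 and 5 of the 6 nucleotide genes fell. Lig1, the ligase that seals Okazaki fragments, had 72.7, 82.3 and 68.5 CPM in E13.5 p18mKO2+ and 129, 152 and 116 CPM in E13.5 p18mKO2- (log2 fold change -0.83 ± 0.24, adjusted p = 0.0414). The flap nuclease gene Fen1 fell as well (log2 fold change -0.78 ± 0.18, adjusted p = 0.0139). Neither of these genes had overlapping groups. Chaf1a had 58.1, 64.4 and 46.9 CPM in p18mKO2+ against 102, 116 and 87.2 CPM in p18mKO2- (log2 fold change -0.85 ± 0.20, adjusted p = 0.0172). Chaf1b, its partner in placing histones on new DNA, had 33.6, 36.5 and 27.1 CPM in p18mKO2+ against 61.8, 62.5 and 69.5 CPM in p18mKO2- (log2 fold change -1.0 ± 0.18, adjusted p = 0.00344). All 3 p18mKO2+ libraries of both subunits stood below the p18mKO2- range. Dut, the dUTPase that keeps uracil out of DNA, had 67.5, 79.5 and 61.3 CPM in p18mKO2+ against 130.1, 146 and 159 CPM in p18mKO2- (log2 fold change -1.06 ± 0.17, adjusted p = 0.00206). Thymidylate synthase, Tyms, which makes dTMP, had 50.95, 58.6 and 42.9 CPM in p18mKO2+ against 97.1, 77.5 and 86.1 CPM in p18mKO2- (log2 fold change -0.78 ± 0.17, adjusted p = 0.00985). The thymidine kinase Tk1, which salvages thymidine, and the uracil glycosylase Ung fell, with log2 fold changes of -1.13 and -0.97 (adjusted p = 0.0122 and 0.0148). In ribonucleotide reductase the small subunit passed and the large one did not, but whether their fold changes differ was not tested. Rrm2 had 176, 221 and 155 CPM in p18mKO2+ against 309.9, 348 and 288 CPM in p18mKO2- (log2 fold change -0.78 ± 0.19, adjusted p = 0.0187). Rrm1 had 180.3, 219.7 and 158 CPM in p18mKO2+ against 299.5, 296 and 219 CPM in p18mKO2-, with groups that overlapped (log2 fold change -0.55 ± 0.19, adjusted p = 0.0798).

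**Figure D2:**
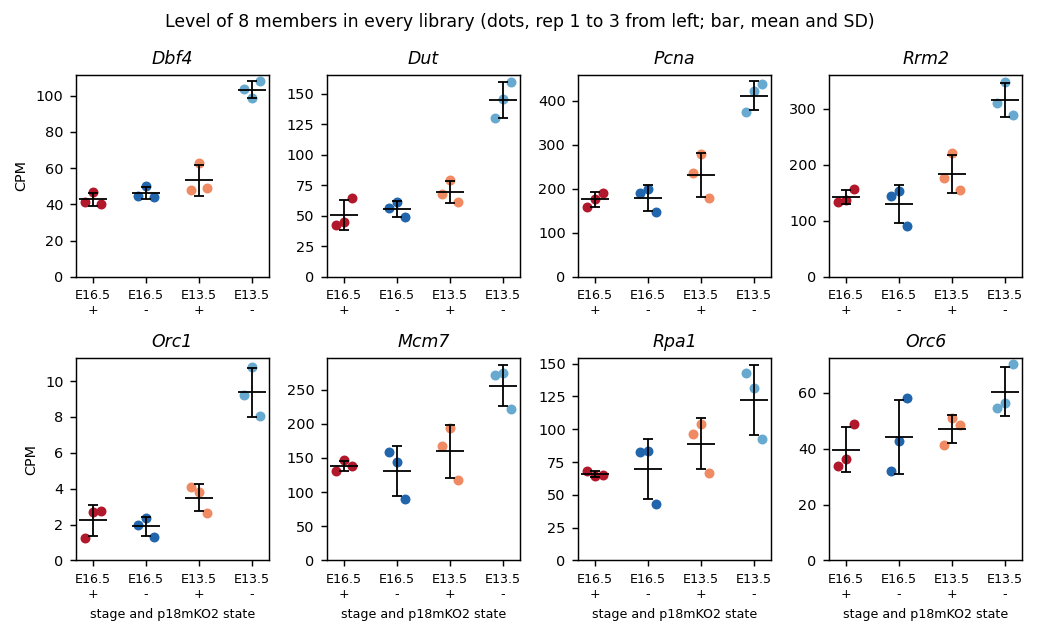
CPM of 8 members in every library (dots, replicates 1 to 3 from left to right), with group mean and SD (n = 3), by stage and p18mKO2 state. In all 8 panels the E13.5 p18mKO2- mean is the highest; the E13.5 p18 groups are apart in every panel but that of Rpa1, where the lowest p18mKO2- library (92.3 CPM) lies below 2 p18mKO2+ libraries.

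Genes of the same pathway outside the 47 were counted in the same fit. Of 39 other origin and fork genes, 15 fell and 0 rose at E13.5 (median -0.49). The replisome gene Timeless, the origin-firing gene Mtbp, the helicase gene Mcm8 and the polymerase-anchoring gene Wdhd1 had the smallest p-values (-0.92 ± 0.17, -1.01 ± 0.20, -0.90 ± 0.17 and -0.79 ± 0.16, SE, adjusted p = 0.00394 to 0.00817). Orc4, Mcmdc2 and Top1 had the largest (-0.06 ± 0.24, 0.22 ± 0.78 and 0.05 ± 0.12). Of 32 other nucleotide supply genes, 10 fell and 0 rose (median -0.43). Among those that fell were Shmt1, Slc29a1 and Pfas (log2 fold changes of -1.10 ± 0.23, -0.76 ± 0.17 and -0.66 ± 0.13), and Dck, Dhodh and Tk2, none of them called, had the largest p-values (-0.10 ± 0.18, -0.16 ± 0.20 and 0.18 ± 0.17).

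Markers of other cells and cell states moved at E13.5 along with the replication genes. Over all 16798 genes tested there, 1224 rose and 586 fell. Of 16 G2 and mitosis genes 10 fell, their summed level being 1963 to 2669 CPM in p18mKO2+ and 3777 to 4048 CPM in p18mKO2-. Of 14 pan-neuronal genes 8 rose, with sums of 4809 to 7326 CPM in p18mKO2+ and 2635 to 3204 CPM in p18mKO2-. Dcx, carried by young migrating neurons, had 1187, 1016 and 1218 CPM in p18mKO2+ against 454, 433 and 334 CPM in p18mKO2- (log2 fold change 1.49 ± 0.15, adjusted p = 0.000107). The p18mKO2+ replicate with the lowest member sum, replicate 3 at 2314 CPM, had the highest neuronal sum, and replicate 2, with the highest member sum of 3189 CPM, had the lowest. Of 12 radial glia genes 6 fell (1796 to 2465 CPM in p18mKO2+ against 2863 to 3143 CPM in p18mKO2-), and of 8 tested erythroid genes 2 fell (859.8 to 1172 CPM in p18mKO2+ against 1733 to 1919 CPM in p18mKO2-). Ventral telencephalic genes, of which 2 of 10 rose, summed to 605.0 to 839 CPM in p18mKO2+ against 209 to 541 CPM in p18mKO2-. Of 9 vascular genes 2 rose and of 7 meningeal genes 1 fell. Of 7 intermediate progenitor genes 2 fell (540.3 to 1053 CPM in p18mKO2+ against 778.7 to 1342 CPM in p18mKO2-), and 0 of 8 microglial genes were called. No listed marker was at 0 in all libraries. The part of these cell types, of the sex of the embryos and of the other library differences in the lower member levels was not tested beyond the fits given above.

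At E16.5 the p18 groups were not separated with 3 libraries each. Of the 47 members 0 were called, as were 0.0% of all genes in either direction, and 0 members reached an unadjusted p under 0.05 (426 of all genes did). DESeq2 called 0 members and 16 genes. The median log2 fold change was -0.02, with 26 members below 0 and 21 above, from -0.43 for Gins1 to 0.28 for Cdc45. In 2 members, Gins3 and Cdc7, every p18mKO2+ library lay below every p18mKO2- library, against 3.88% of all genes. Their levels were close all the same. Gins3 had 7.25, 7.89 and 6.50 CPM in p18mKO2+ and 9.15, 8.50 and 8.05 CPM in p18mKO2- (-0.25 ± 0.22). Cdc7 had 34.8, 37.8 and 36.7 CPM in p18mKO2+ and 38.1, 38.5 and 52.5 CPM in p18mKO2- (-0.24 ± 0.21).

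The other members with the smallest p at E16.5 pointed both ways, each at an adjusted p of 1.0. Gins1 had 15.1, 19.4 and 12.1 CPM in p18mKO2+ and 14.6, 21.9 and 26.02 CPM in p18mKO2- (-0.43 ± 0.25). Chaf1b had 21.5, 25.2 and 19.6 CPM in p18mKO2+ and 28.9, 30.2 and 20.3 CPM in p18mKO2- (-0.26 ± 0.18). Cdc45 had 17.8, 19.9 and 24.3 CPM in p18mKO2+ and 22.2, 18.6 and 10.3 CPM in p18mKO2- (0.28 ± 0.24). The groups of these 3 genes overlapped, as did those of Pole, at 38.4, 40.6 and 40.03 CPM in p18mKO2+ and 46.7, 33.1 and 23.1 CPM in p18mKO2- (0.21 ± 0.20). The members with the largest p were almost level. Tyms had 31.3, 31.6 and 32.9 CPM in p18mKO2+ and 31.2, 38.7 and 25.6 CPM in p18mKO2- (0.01 ± 0.17). Tk1, Pole2 and Orc2 differed by 0.02 ± 0.25, -0.02 ± 0.27 and -0.01 ± 0.13 on the log2 scale (SE). Replicate 3 of E16.5 p18mKO2- was the lowest library of its group in 40 of 47 members, and without it 42 members were below 0 (median -0.15) and 0 were called. Without the libraries of mixed sex 0 were called as well (median -0.01), and with the ribosomal RNA gene as a covariate 5 were below 0 (median 0.41) and 0 were called. That gene's CPM did not overlap between the E16.5 p18 groups (16650 to 39640 in p18mKO2+, 70620 to 152000 in p18mKO2-). At this stage the covariate and the p18 state are therefore hard to tell apart. The sign at E16.5 also depended on the scaling. Over all genes, TPM stood higher against CPM in p18mKO2+ than in p18mKO2- by a median log2 of 0.27 at this stage (0.17 at E13.5). On the TPM scale 45 of 47 members had a higher mean in E16.5 p18mKO2+, with a median log2 ratio of 0.21, which is below that shift.

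**Figure D3:**
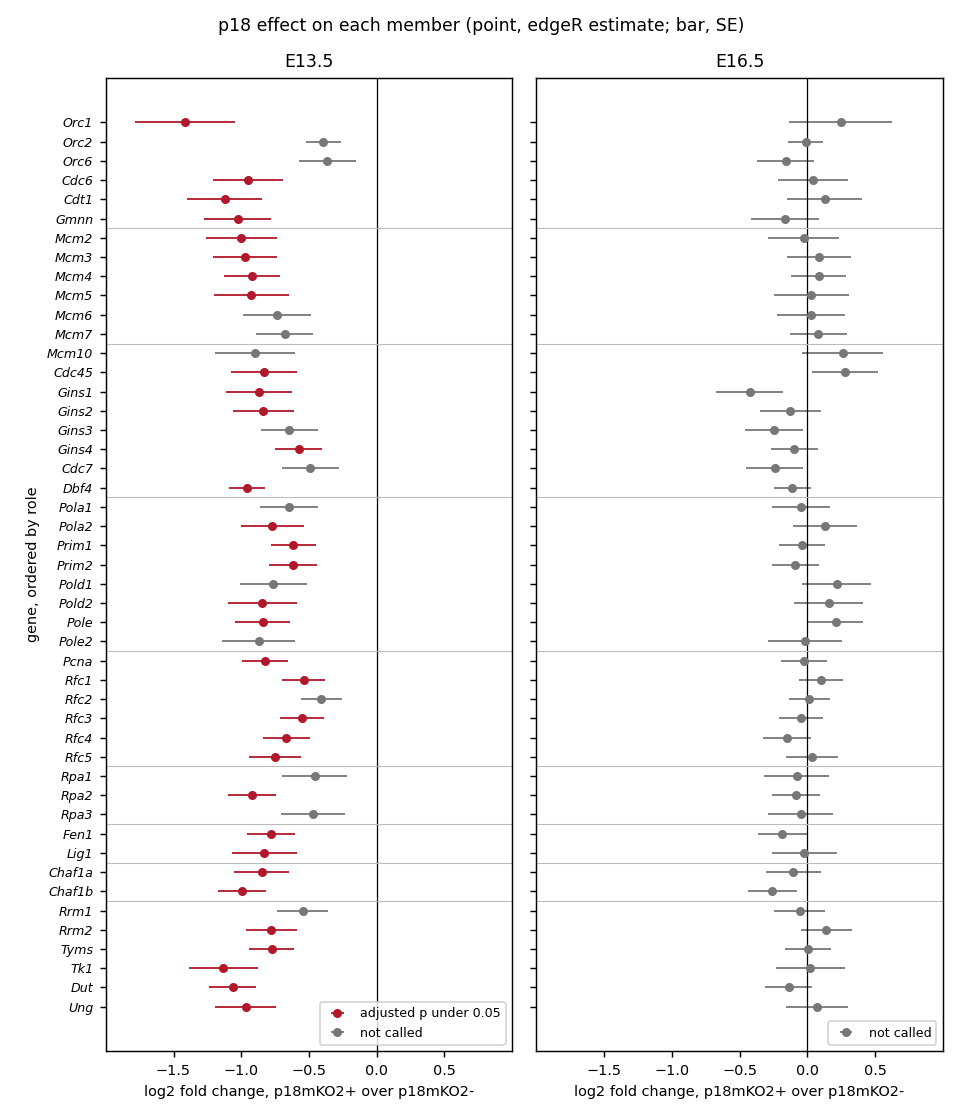
Log2 fold change of each member, p18mKO2+ over p18mKO2-, at E13.5 (left) and E16.5 (right), with its SE; red marks an adjusted p under 0.05 and grey lines part the 9 roles. All 47 points lie below 0 at E13.5, from -1.42 to -0.36, and all lie between -0.43 and 0.28 at E16.5.

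Tested directly, the p18 effect differed between stages in 1 member. For Dbf4 the log2 fold change at E16.5 minus that at E13.5 was 0.84 ± 0.19 (SE, edgeR adjusted p = 0.034), where 0.298% of all genes were called higher. Dbf4 had 41.1, 47.02 and 40.1 CPM in E16.5 p18mKO2+ and 44.7, 50.1 and 43.8 CPM in E16.5 p18mKO2-, and these groups overlapped. The call was lost when any of 11 of the 12 libraries was left out, E13.5 p18mKO2+ replicate 2 being the exception, with a difference of 0.78 to 0.98 and an adjusted p of up to 0.131. All 47 differences were above 0, with a median of 0.78, and 35 had an unadjusted p under 0.05 (2749 of all 16798 genes did). The next smallest p-values belonged to Dut (0.92 ± 0.24), Pole (1.05 ± 0.29), Mcm4 (1.01 ± 0.29), Rrm2 (0.92 ± 0.27) and Pcna (0.80 ± 0.24), at adjusted p = 0.0621 to 0.0953. Orc6, Cdc7, Rpa1 and Rpa3 had the largest (0.21 ± 0.30, 0.25 ± 0.30, 0.38 ± 0.34 and 0.42 ± 0.33). DESeq2 called 14 members in this comparison, where it called 273 genes higher, and edgeR called 0 members without the libraries of mixed sex. With the ribosomal RNA gene as a covariate edgeR called 10 others and lost Dbf4 (0.89, adjusted p = 0.0619).

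With time, in normal tissue, nearly the whole set went down. In p18mKO2- libraries 46 of 47 members fell at E16.5 against E13.5, where 13.4% of all genes were called lower, and the median log2 fold change was -1.24 (42.3% of the E13.5 level). In the same 46 the 2 stages did not overlap, against 19.4% of all genes. Tyms had 31.2, 38.7 and 25.6 CPM at E16.5 and 97.1, 77.5 and 86.1 CPM at E13.5 (log2 fold change -1.45 ± 0.17, adjusted p = 3.42e-05). Dbf4 and Dut, next by p, had log2 fold changes of -1.16 and -1.38, and Dut had 56.5, 61.1 and 48.96 CPM at E16.5 against the E13.5 values given above. Those of Pole, Rpa2 and Mcm4 were -1.53, -1.30 and -1.49. All 3 libraries at E16.5 were below all 3 at E13.5 for each of these genes. Orc1 showed the largest fall, to 1.97, 2.39 and 1.33 CPM at E16.5 (log2 fold change -2.30 ± 0.39, adjusted p = 0.000528). The exception was Orc6, with 31.99, 42.7 and 58.2 CPM at E16.5 and overlapping stages (log2 fold change -0.45 ± 0.21, adjusted p = 0.13). Among those called, Gins4, Cdc7 and Rpa1 had the largest p (-0.58 ± 0.17, -0.70 ± 0.21 and -0.81 ± 0.24, adjusted p = 0.0227, 0.0223 and 0.0206). Calls numbered 43 to 47 in every alternative run, and 43 of the 46 held in all of them. Markers differed over the same interval, in which 2760 of all 16798 genes rose. In p18mKO2- 11 of 14 pan-neuronal genes rose, summing to 7122 to 9305 CPM at E16.5 and 2635 to 3204 CPM at E13.5, and 16 of 16 G2 and mitosis genes fell, at 1036 to 1776 CPM at E16.5 and 3777 to 4048 CPM at E13.5. Of 12 radial glia genes 9 fell and 2 rose (1612 to 2103 CPM at E16.5 against 2863 to 3143 CPM at E13.5), and of 8 tested erythroid genes 5 fell (611.8 to 1072 CPM at E16.5 against 1733 to 1919 CPM at E13.5). Their part in the lower member levels was not tested.

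A few relatives outside the 47 moved the other way over this interval. They were 1 of 39 other origin and fork genes and 3 of 32 other nucleotide supply genes, both smaller shares than that of all genes (2760 of 16798 rose). Pold4, a small subunit of polymerase delta, rose at a low level (log2 fold change 0.94 ± 0.32, adjusted p = 0.0412). It had 5.65, 3.815 and 5.27 CPM at E16.5 and 3.17, 1.845 and 2.63 CPM at E13.5 in p18mKO2-. Rrm2b, the ribonucleotide reductase subunit used outside S phase, rose too (log2 fold change 0.64 ± 0.19, adjusted p = 0.0213). So did the UMP-CMP kinase gene Cmpk1 (log2 fold change 0.63 ± 0.17, adjusted p = 0.0108) and the mitochondrial thymidine kinase gene Tk2 (log2 fold change 0.46 ± 0.17, adjusted p = 0.0493). Against them, 28 of 39 other origin and fork genes and 14 of 32 other nucleotide supply genes fell. The TPM of Rrm2 was 18.9, 11.7 and 7.99 times that of Rrm2b in the E16.5 p18mKO2- libraries and 42.1, 52.8 and 43.9 times in E13.5 p18mKO2-. In E13.5 p18mKO2+ the ratio was 17.5, 26.7 and 20.01. Tk1 stood at 1.22, 2.42 and 0.867 times Tk2 in E13.5 p18mKO2+ against 2.99, 2.73 and 4.40 times in E13.5 p18mKO2-. The TPM of Orc1 over that of Orc2 was 0.0625, 0.0674 and 0.0612 in E13.5 p18mKO2+ against 0.168, 0.172 and 0.171 in E13.5 p18mKO2-. The E13.5 p18 groups were apart in all 3 ratios. Exact permutation tests, two-sided, gave p = 0.1 for each, the smallest that 3 against 3 allows, and 0.171 after Benjamini-Hochberg adjustment over the 12 ratio tests made.

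In p18mKO2+ tissue the same interval brought smaller differences. At E16.5 against E13.5, edgeR called 0 of the 47 members, where it called 0.554% of all genes lower. DESeq2 called 5 members, where it called 349 genes lower. In edgeR 23 members had an unadjusted p under 0.05 (2486 of all 16798 genes did). All 47 fold changes were below 0, with a median of -0.46. With the ribosomal RNA gene as a covariate 42 were below 0 (median -0.26), and without E13.5 p18mKO2+ replicate 2 there were 45 (median -0.35). In the main fit Rfc4 came closest to a call, with 19.1, 19.9 and 25.8 CPM at E16.5 and 35.4, 37.2 and 34.3 CPM at E13.5 (log2 fold change -0.72 ± 0.18, adjusted p = 0.0571). Gins3 had the E16.5 values given above and 12.8, 16.4 and 10.1 CPM at E13.5 (log2 fold change -0.86 ± 0.21, adjusted p = 0.0612). Tyms had 31.3, 31.6 and 32.9 CPM at E16.5 and 50.95, 58.6 and 42.9 CPM at E13.5 (log2 fold change -0.67 ± 0.17, adjusted p = 0.0627). In each of these 3 genes the stages were apart. Gmnn had 11.7, 12.9 and 16.9 CPM at E16.5 and 24.1, 32.9 and 22.2 CPM at E13.5 (-0.93 ± 0.25, adjusted p = 0.082). Prim1 and Fen1 had log2 fold changes of -0.58 ± 0.17 and -0.57 ± 0.18 (adjusted p = 0.107 and 0.135). Cdc45, Gins4, Pold2 and Prim2 had the largest p and differed least (-0.13 ± 0.24, -0.10 ± 0.17, -0.15 ± 0.25 and -0.14 ± 0.17). The difference between this stage change and that in p18mKO2- is the same quantity as the difference of p18 effects above, which passed for Dbf4.

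**Figure D4:**
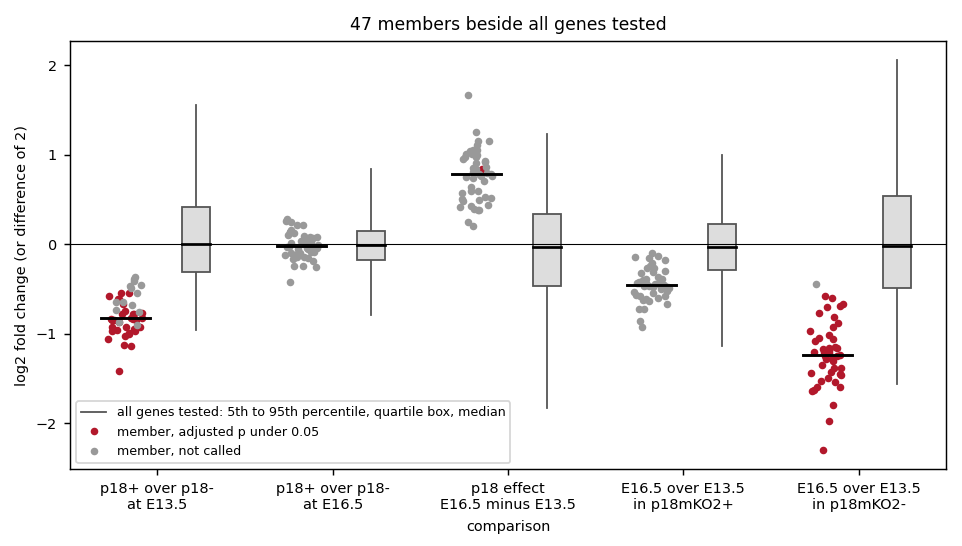
Log2 fold changes of the 47 members (dots; red, adjusted p under 0.05; bar, median) in each of the 5 comparisons, beside all 16798 genes tested (5th to 95th percentile, quartile box and median). The member median is -0.83 for p18 at E13.5, -0.02 for p18 at E16.5, 0.78 for their difference, -0.46 over time in p18mKO2+ and -1.24 over time in p18mKO2-, while those of all genes lie between -0.03 and 0.01.

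Set side by side, the 4 groups had one order in every member at the top: the E13.5 p18mKO2- mean was the highest of the 4 in 47 of 47, and the E13.5 p18mKO2+ mean lay below it and above both E16.5 means in 47 of 47. How many of all genes showed this order was not counted. The p18 comparison and the p18mKO2- stage comparison share the E13.5 p18mKO2- libraries. The summed level per length of the 47 members was 2145 ± 144 TPM in E16.5 p18mKO2+, 1866 ± 439.7 TPM in E16.5 p18mKO2-, 2727 ± 267 TPM in E13.5 p18mKO2+ and 4142 ± 125 TPM in E13.5 p18mKO2- (SD, n = 3 each). The lower end of the E16.5 p18mKO2- spread was its replicate 3, at 1360.0 TPM.

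Within a complex the ranking of subunits per length changed little between groups. Mcm7 was the highest of the 6 MCM genes in all 3 libraries of every group, at 119 ± 18.3 TPM in E16.5 p18mKO2+, 106 ± 31.5 TPM in E16.5 p18mKO2-, 132 ± 24.8 TPM in E13.5 p18mKO2+ and 183 ± 6.76 TPM in E13.5 p18mKO2- (SD, n = 3 each). Mcm4 had the lowest mean of the ring in each group, at 37.8 ± 6.10 TPM in E16.5 p18mKO2+, 29.3 ± 11.1 TPM in E16.5 p18mKO2-, 48.01 ± 6.72 TPM in E13.5 p18mKO2+ and 82.2 ± 14.03 TPM in E13.5 p18mKO2-. The ratio of the highest to the lowest MCM mean was 3.16 in E16.5 p18mKO2+, 3.61 in E16.5 p18mKO2-, 2.75 in E13.5 p18mKO2+ and 2.23 in E13.5 p18mKO2-. Mcm7 exceeded Mcm4 in each of the 12 libraries. Gins3 was the lowest GINS gene in every library. By group mean Gins4 was first in E16.5 p18mKO2+ and Gins1 in the other groups. The leader was the highest in 2 of the 3 libraries of each E16.5 group and in all 3 of each E13.5 group. Prim1 was the highest and Pola1 the lowest of the polymerase alpha-primase genes in every library, with a ratio of means of 5.84 in E16.5 p18mKO2+, 6.002 in E16.5 p18mKO2-, 5.87 in E13.5 p18mKO2+ and 5.65 in E13.5 p18mKO2-. Rfc2 led the clamp loader and Rpa3 led single-strand binding protein in every library.

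**Figure D5:**
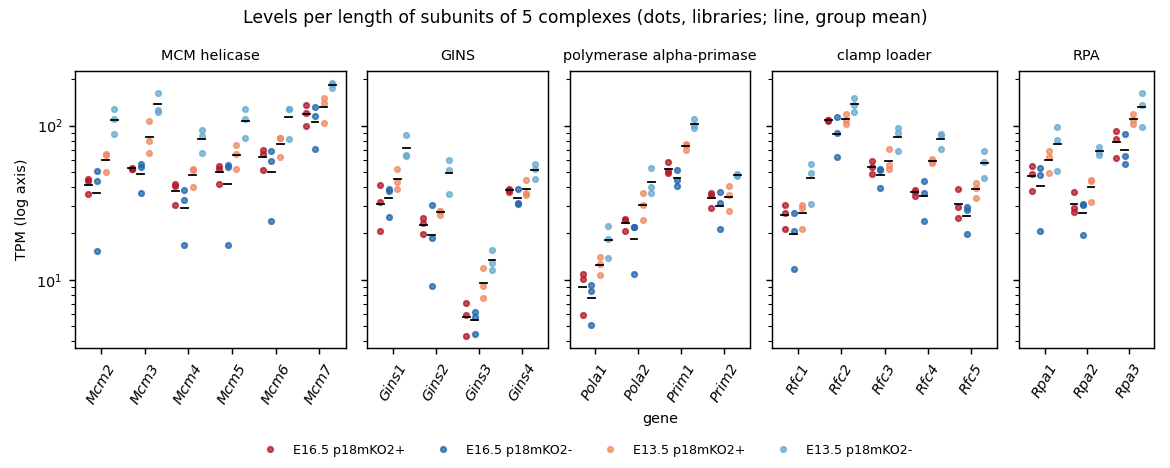
TPM (log axis) of the subunits of 5 complexes in every library (dots) with group means (lines), groups from left to right E16.5 p18mKO2+, E16.5 p18mKO2-, E13.5 p18mKO2+ and E13.5 p18mKO2-. Mcm7, Prim1, Rfc2 and Rpa3 are the highest of their complexes in all 12 libraries, and Gins3 and Pola1 the lowest of theirs.

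Promoter sequence was looked up for all members, and 39 of 47 matched the RefSeq table (46 windows of 250 bases before and 50 bases after a start, GRCm38.p6). At least 1 of the 4 E2F forms was in 13 of the 39 (33.3%), against 2.6% of the 27025 gene symbols in the table. These symbols, the background for every motif here, were not limited to the 16798 genes tested. The 13 were Cdc6, Cdt1, Gins3, Lig1, Mcm3, Mcm5, Mcm6, Mcm7, Orc1, Pola1, Pold1, Pole2 and Rfc3, and in 8 of them a whole form lay before a RefSeq start. The Sp1 box GGGCGG was in 76.9% of the 39 against 38.2% of all, the CCAAT box in 59.0% against 41.1%, and the CHR elements TTTGAA or TTCGAA in 23.1% against 21.7%, each searched on both strands. None of the 19 E2F forms counted overlapped an Sp1 box, and the count may leave out forms that overlap another form, as in Mcm5 and Mcm6. The median log2 fold change at E13.5 was -0.83 for the 13 members with an E2F form and -0.78 for the 26 without, as a description with no test.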

How the data were processed

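RNA of 12 libraries, 3 in each of 4 groups, was measured. Per the labels' protocols, libraries came from polyadenylated RNA with a directional kit. Tools listed in the submitters' processing notes were RSEM 1.2.31, STAR 2.7.2b and cutadapt 3.4; GRCm38 (mm10) was the build listed. No source used here names the annotation release or says how strand was treated, so overlapping and antisense genes may share reads. Per the file headers, the authors deposited an RSEM expected count, a TPM and a posterior standard deviation per gene, the last of which is used in no test. A TPM is corrected for gene length and has the same total in every library.

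Expected counts were rounded, and filterByExpr kept 16798 of 55487 genes. A quasi-likelihood model in edgeR 4.0.16 (R 4.3.3), with TMM factors, gave each of the 4 groups its own mean over the 12 libraries (8 residual degrees of freedom, biological coefficient of variation 0.311). Adjusted p-values are Benjamini-Hochberg values over all genes tested, called under 0.05, and the SE is the absolute log2 fold change over the square root of F. Gene symbols were found for 55141 rows and GENCODE M21 entries for 55227. The alternatives were RLE scaling, DESeq2 1.42.0, other filters, a replicate block, a ribosomal RNA covariate, GC offsets, and libraries left out. Values are named for the 6 smallest and 4 largest p-values of each comparison and the highest member of each role, and beyond these for members that complete a role, named after their values were seen. Members, lists and ratios were chosen with earlier results of these data known. The values of 1 gene named by this rule are not reported here.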

Additional observations from a re-analysis of the deposited data

Results flagged for a closer look

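The p18 effect on Dbf4 differed between the stages: the log2 fold change, p18mKO2+ over p18mKO2-, at E16.5 minus that at E13.5 was 0.84 ± 0.19 (SE, edgeR quasi-likelihood test, adjusted p = 0.034). It was -0.11 ± 0.14 at E16.5 and -0.96 ± 0.14 at E13.5. Dbf4 was the only one of the 47 members called in this test by edgeR with all 12 libraries. DESeq2 called 14 members, Dbf4 included, where it called 273 genes higher. The call on Dbf4 was lost in 11 of the 12 fits that left out 1 library (0.78 to 0.98, adjusted p of up to 0.131), without the libraries of mixed sex (0.84, adjusted p = 0.126) and with the ribosomal RNA gene as a covariate (0.89, adjusted p = 0.0619).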

How the results depend on the processing

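With 3 libraries per group, 8 residual degrees of freedom limit what could be called. Direction held well at E13.5, where every tested member stayed below 0 in all 15 alternatives. In p18mKO2- over time 43 to 47 members were called in each. Direction did not hold for the p18 comparison at E16.5, where 26 members were below 0 in the main fit. There were 5 with the ribosomal RNA gene as a covariate, 42 without E16.5 p18mKO2- replicate 3 and 12 without its replicate 2. Single-member signs were followed for all 47 members at E13.5 and over time in p18mKO2-. In the other comparisons they were followed for the 6 members with the smallest p. Of the values so followed, the one that turned was Gins3 at E16.5, 0.11 with the ribosomal RNA gene as a covariate. The cause was not tested here or for the counts below. GC offsets were chosen after seeing the data.

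Members called at E13.5 (33) numbered 5 with the ribosomal RNA covariate, 5 without the libraries of mixed sex, and 5 to 30 with 1 library left out. Calls over all genes there (1810) numbered 729, 796 and 927 to 1805 in the same order. At E16.5, where 0 genes were called, there were 81 with no filter on low counts, 1 without the libraries of mixed sex, 16 with DESeq2 and 0 to 1 with 1 library left out.

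For the difference of the p18 effect (1 member), the count was 19 with no filter, 2 at a mean of at least 5 CPM, 10 with the ribosomal RNA covariate (Dbf4 not among them), 0 without the libraries of mixed sex, 14 with DESeq2 and 0 to 5 with 1 library left out. Over all genes (453) it was 1168 with no filter, 149 without the libraries of mixed sex, 1122 with DESeq2 and 124 to 525 with 1 library left out. For E16.5 against E13.5 in p18mKO2+ (0 members), it was 4 with no filter, 2 at a mean of at least 5 CPM, 1 with GC offsets, 5 with DESeq2, 5 with only the libraries compared and 0 to 2 with 1 left out. Over all genes (275) it was 970 with no filter, 116 without the libraries of mixed sex, 848 with DESeq2, 622 with only the libraries compared and 76 to 366 with 1 left out.

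Same-numbered libraries correlated at -0.07 to 0.28 over 18 pairs, 8 of them above 0.1, and 11 of 12 libraries correlated best with their own number, a hint from the data and not the design, so the numbers were not taken to pair the libraries. With the replicate block the calls were 42 members and 2369 genes at E13.5, 0 and 0 at E16.5, 10 and 767 for the difference, 5 and 547 over time in p18mKO2+, and 47 and 5526 over time in p18mKO2-.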
